A study of Mus musculus with 29 samples.

Results

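C2C12 cells, an immortalised line of mouse myoblasts (the dividing precursors of muscle fibres), were transfected with a mimic of miR-29a, a synthetic double-stranded copy of the microRNA, or with AllStar, a commercial negative control oligonucleotide. The comparison uses 9 of the 29 arrays of the series: 3 arrays of the miR-29a mimic and 6 of the AllStar control. The controls are 3 transfections, each with a technical repeat that was averaged with it, so that each side had 3 values. All of these cells were at passage 27, were kept in growth medium with serum, received 50 nM of oligonucleotide and were collected after 36 h. The same design was used for 6 other mimics (miR-34a, miR-22, miR-365, miR-145, miR-1 and Let-7b) with 3 arrays each, and 1 array each of untransfected myoblasts and of myotubes, the fused muscle cells, had no replicate. The labels call the transfections 3 independent experiments, all with 1 cell line. An over-expressed mimic reaches levels that were not measured here, and a mimic is a model of microRNA excess, not of the cell's own miR-29a.

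A microRNA guides an Argonaute protein to messenger RNAs, mostly through pairing of its seed (bases 2 to 8 from the 5′ end) with sites in the 3′ untranslated region, and lowers their level or translation. The miR-29 family is known for repressing genes of the extracellular matrix, above all collagens, and the enzymes that write and remove DNA methylation. It is also described as a microRNA that rises when myoblasts differentiate. The mature sequences are shown because their seed defines the family. Capitals mark the seed, and the sequences and their positions are RefSeq's (GRCm38.p6).
mmu-miR-29a-3p: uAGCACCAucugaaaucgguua
mmu-miR-29b-3p: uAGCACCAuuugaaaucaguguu
mmu-miR-29c-3p: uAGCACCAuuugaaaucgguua
The miR-29a-3p sequence lies at chr6:31062673-31062694 on the minus strand. Of 1679 mature mouse microRNA names in the RefSeq table, these 3 carry the seed AGCACCA. Counted from the 5′ end, miR-29c-3p differs from miR-29a-3p by C10U, outside the seed, and miR-29b-3p by C10U, G18A, U21G and A22U and by 1 more base at its 3′ end (23 bases against 22). The seeds of the other mimics found in the table are GGCAGUG (miR-34a-5p), AGCUGCC (miR-22-3p), AAUGCCC (miR-365-3p) and GAGGUAG (let-7b-5p). The labels do not state which arm the mimics copy, and the 3p arm of miR-29a is shown as the one that carries the family's seed.

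Expression was measured on arrays of 35556 probe sets as log2 values that the authors had normalised with RMA. The values ran from 2.35 to 14.65, and the array medians from 7.24 to 7.39. A difference of 1 on this scale is a 2-fold difference. One probe set per gene gave 19938 genes. The median level of the 12146 probe sets with no listed gene, 6.66, is used below as the mark of a dim signal. The number of arrays limits the precision, and all adjusted p-values are from limma's moderated test with Benjamini-Hochberg adjustment over all genes, 2-sided, with a threshold of 0.05. The cells carried myoblast markers: Myod1, the master regulator of the lineage, was at 12.10, 12.15 and 11.84 in the 3 controls and at 12.16, 12.14 and 11.90 with the miR-29a mimic. Of 10 myoblast markers 3 rose under miR-29a and 0 fell, against 5.54% of all genes higher and 4.78% lower, and 6 rose in a model that blocks on the replicate number (the replicate block). Of 4 osteoblast markers 1 was higher, Sp7, whose control mean of 6.55 lay below the dim mark. None of the 8 fibroblast, 6 macrophage, 6 endothelial, 6 adipocyte, 6 chondrocyte, 6 neuron and 6 epithelial markers was called, but with the block 1 fibroblast marker (Cd34, −0.33) and 1 osteoblast marker (Ibsp, below the dim mark in both groups) were lower; these 3 genes were picked out after their values were seen. Ptprc, the pan-leukocyte marker, had means of 5.56 in controls and 5.70 with miR-29a, both below the dim mark. The mimic itself was not measured: the probe set of the Mir29a precursor gave 5.63, 5.07 and 5.17 in the controls and 5.05, 4.85 and 5.15 with the mimic, and a mature oligonucleotide is not what it detects.

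The question of the main comparison is which genes change when miR-29a is in excess. In all, 2058 of 19938 genes passed (10.3%), of which 1104 were higher (5.54%) and 954 lower (4.78%) under miR-29a. With the replicate number as a block, 3142 genes passed (15.8%), 1742 higher (8.74%) and 1400 lower (7.02%). Without the control replicate 3 the count of higher genes was 646, and it was 680 without control replicate 2, 730 without miR-29a replicate 2 and 696 without miR-29a replicate 3. The median difference over all genes was 0.01. Most changes were small: the median called decrease was −0.42 and the median called increase 0.40. At least 2-fold differences were found for 34 lower and 24 higher genes, and at least 1.5-fold differences for 232 lower and 200 higher genes.

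Among the 15 largest decreases were genes of secreted matrix proteins, of enzymes and of cell cycle and chromatin regulators. The largest was C1qtnf6, which encodes a secreted protein of the C1q and TNF-related family. Its levels were 9.48, 9.64 and 9.63 in the controls and 8.07, 7.64 and 7.23 under miR-29a. The groups lay far apart, and the gene fell by 1.94 ± 0.14 (SE, n = 3 against 3), 3.83-fold, with an adjusted p of 8.9e-09. Each SE given here comes from a spread pooled over the 8 transfected groups. The SD of C1qtnf6 itself was 0.09 in the controls and 0.42 under miR-29a. Its 18 values under the other mimics ran from 9.30 to 10.07, all above the 3 miR-29a values. Sh3pxd2a, which encodes the podosome scaffold Tks5, went from 9.74, 9.34 and 9.46 to 8.49, 8.06 and 7.66. Ankrd52, a regulatory subunit of protein phosphatase 6, went from 11.79, 11.78 and 11.83 to 10.70, 10.22 and 10.17. Both groups were apart for each of these genes, and they fell by 1.44 ± 0.18 and 1.43 ± 0.10.

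Several of the largest decreases belong to metabolism and amino acid supply. Slc7a1, the cationic amino acid transporter CAT-1, was at 10.98, 10.85 and 10.87 in controls and at 9.94, 9.26 and 9.47 under miR-29a, a decrease of 2.54-fold. Cth, cystathionine gamma-lyase of cysteine synthesis, was at 9.67, 9.90 and 9.94 and then at 8.81, 8.69 and 8.55. Uprt, a relative of uracil phosphoribosyltransferases, fell by 1.22 ± 0.10 and Ak4, a mitochondrial adenylate kinase, by 1.18 ± 0.19. Gxylt2, a xylosyltransferase that acts on O-glucose of Notch-type repeats, fell by 1.24 ± 0.21, and its control values of 10.22, 9.84 and 10.02 all lay above the miR-29a values of 9.30, 8.47 and 8.59. Nuclear proteins were also among them. Phf10, a subunit of the PBAF chromatin remodeller, fell by 1.16 ± 0.12, and Taf13, a subunit of the general transcription factor TFIID, by 1.14 ± 0.14. Plau, the urokinase plasminogen activator, fell 2.35-fold and Tmem45a 2.26-fold. Of the 15 genes, Ankrd52, Col1a1, Cdk6 and Col3a1 stand on the list of known miR-29 targets described below. All 15 were called lower against the mean of the other 6 mimics, but only 9 lay below all 18 values of those mimics. Sh3pxd2a, Ankrd52, Cdk6, Gxylt2, Ak4 and Tmem45a overlapped them. Ankrd52 means with those mimics ran from 10.44 (miR-22) to 12.04 (miR-1), against 11.80 in controls. Those of Sh3pxd2a ran from 8.54 (miR-365) to 9.96 (miR-1), against 9.51. Ak4 means ran from 7.45 (miR-365) to 9.33 (miR-34a), against 8.46.

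The 10 largest increases included receptors and secreted proteins. Htr2b, a serotonin receptor, was at 7.08, 7.06 and 7.09 in controls and at 8.65, 9.14 and 9.10 under miR-29a. It rose by 1.89 ± 0.15, 3.70-fold (adjusted p = 2.3e-08). Its means under the other mimics also lay above the control mean of 7.08, from 7.13 under miR-145 to 8.60 under miR-34a. Map3k7cl rose by 1.57 ± 0.16, the chemokine Ccl9 by 1.53 ± 0.14 and the fatty acid binding protein Fabp7 by 1.41 ± 0.19. Fabp7 was at 9.73, 9.40 and 9.69 and then at 10.79, 11.21 and 11.04. Ccl9 was at 6.73, 7.03 and 6.63 in controls, close to the dim mark, and at 8.11, 8.31 and 8.57 under miR-29a. That limits the size given for its rise. Ccl9 and Fabp7 were also the 2 of these 10 genes whose miR-29a values exceeded all 18 values of the other mimics. Olr1, the receptor for oxidised LDL, rose 2.58-fold, Chic1 2.46-fold, Nox4, an NADPH oxidase, 2.45-fold and the peroxiredoxin-like Prxl2a 2.44-fold. Hoatz also passed, from control levels of 6.54, 6.62 and 6.20 to 7.64, 7.89 and 7.70, and since the controls lay below the dim mark no fold is given. Aspn, the small matrix proteoglycan asporin, was higher by 1.57 ± 0.43 (adjusted p = 0.020), with values of 8.84, 9.34 and 8.15 against 7.16, 7.38 and 7.09. That gene missed the threshold without miR-29a replicate 1 (adjusted p = 0.051), without miR-29a replicate 2 (0.126), without control replicate 1 (0.055), without control replicate 3 (0.073) and with robust moderation of the variances (0.054). Against the mean of the other 6 mimics, 6 of these 10 genes were called higher. Nox4 (adjusted p = 0.21), Prxl2a (0.81), Hoatz (0.25) and Aspn (0.28, and 0.046 with the replicate block) were not. Every other mimic had a mean above the control mean for Nox4 (8.55 to 9.61 against 8.18), Prxl2a (9.08 to 9.85 against 8.36) and Hoatz (6.96 to 8.03 against 6.45). The Aspn means ran from 6.67 under miR-365 to 10.10 under miR-22, against 7.21 in controls. Those of Olr1 ran from 6.61 under miR-145 to 8.83 under miR-1, against 8.88 under miR-29a.

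**Figure D1:**
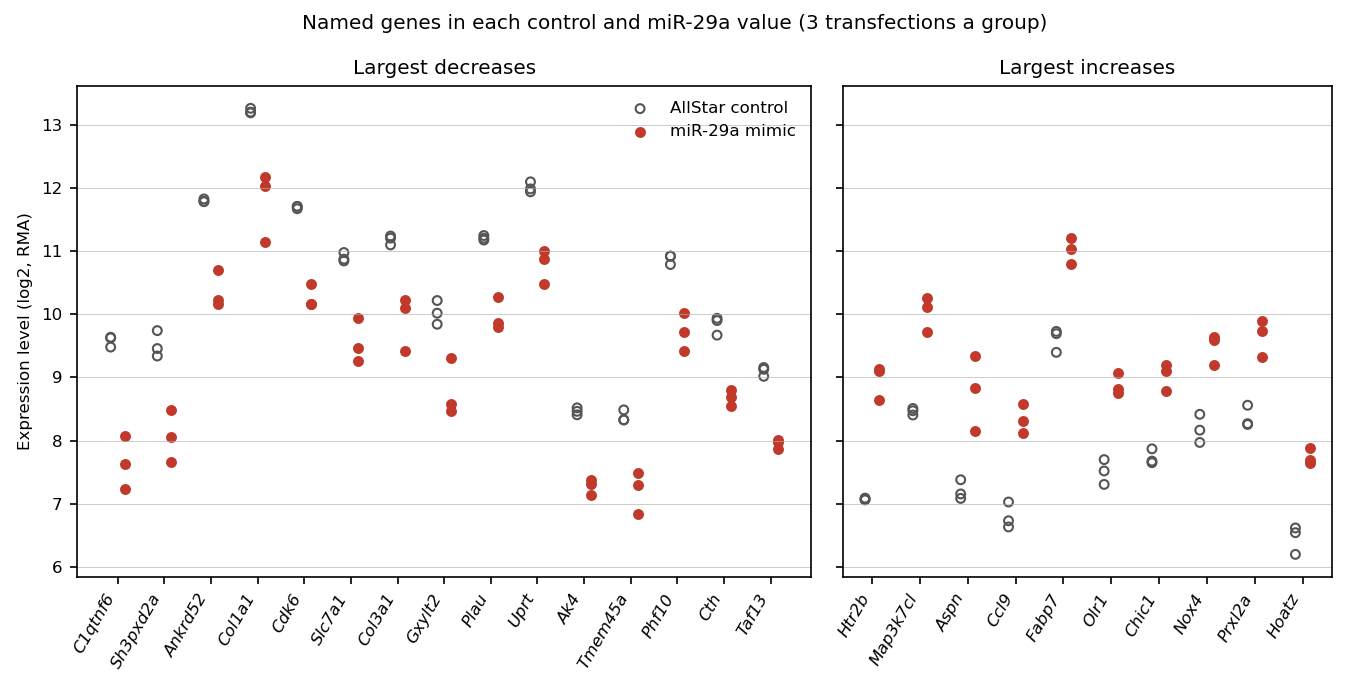
Expression level (log2, y axis) of the 15 largest decreases (left) and 10 largest increases (right) under miR-29a; each open circle is a control transfection and each filled circle a miR-29a transfection, 3 a group. No gene has overlapping groups, which the choice of genes required; C1qtnf6 and Htr2b show the largest distances.

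Of 94 measured genes that are known or proposed targets of miR-29, 44 fell and 1 was higher (2 with the replicate block), against 4.78% of all genes lower and 5.54% higher. The list had a median difference of −0.29, against 0.01 over all genes. Like the other lists, it was chosen with earlier results of these data known. Averaged over the list, the 3 miR-29a values lay 0.24, 0.33 and 0.42 below the control mean. The controls themselves lay between −0.02 and 0.03, and the means of the 6 other mimics between 0.00 and 0.07, with none of them below the control mean. Leaving out one replicate at a time gave 33 to 45 lower genes. The list holds many matrix genes, and 38 of its members also stand on one of the matrix lists below. Of these, 22 fell (57.9%), with a median of −0.36. Of the 56 other members 22 fell (39.3%), with a median of −0.23. The 1 higher member was Itga11, the collagen-binding integrin subunit alpha 11, whose call did not hold without any 1 of 5 replicates. Cdc42, a small GTPase on the list, differed by −0.08 (adjusted p = 0.43).

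**Figure D2:**
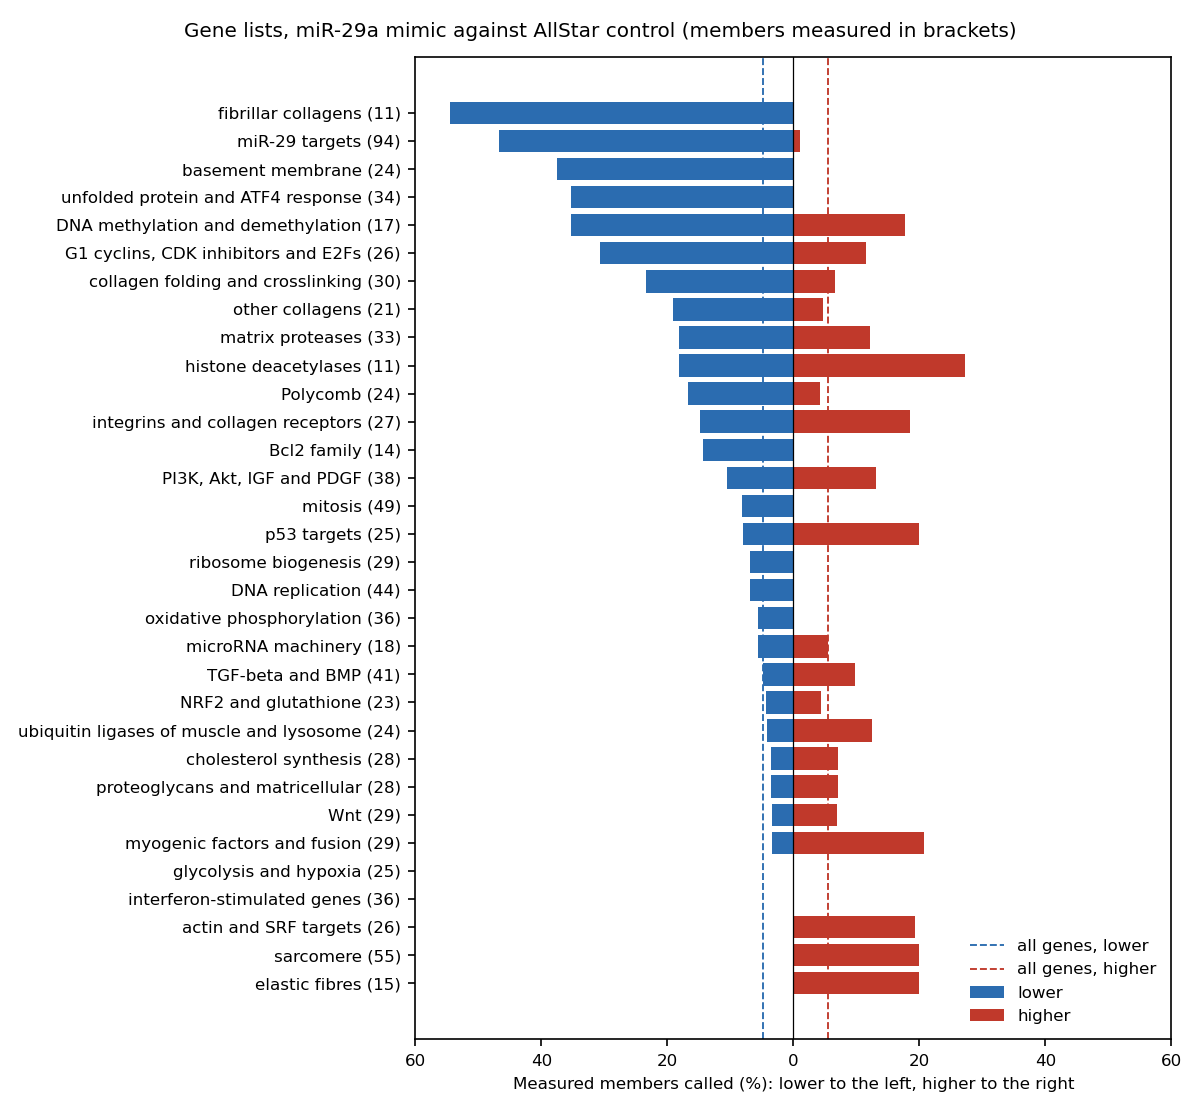
Share of measured members of each gene list (y axis, number measured in brackets) that was lower (left bars) or higher (right bars) under miR-29a than in the control, in percent (x axis); dashed lines mark the shares over all genes. Fibrillar collagens and miR-29 targets have the longest bars to the left, and interferon-stimulated and glycolysis genes have none.

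Fibrillar collagens build the tensile fibres of connective tissue. Of 11 measured genes 6 fell and 0 rose, with a median of −0.59. Col1a1, the main chain of type I collagen, was at 13.20, 13.19 and 13.26 in controls and at 12.18, 12.03 and 11.14 under miR-29a. That is a decrease of 2.70-fold (−1.43 ± 0.16, adjusted p = 2.2e-06), and miR-29a replicate 3 was the lowest. Its partner chain Col1a2 went from 12.79, 12.77 and 12.81 to 12.13, 12.07 and 11.39, a decrease of 1.90-fold. Col3a1, the type III chain, went from 11.10, 11.21 and 11.24 to 10.22, 10.11 and 9.41, a decrease of 2.41-fold. All 3 chains of type V collagen, which nucleates these fibres, fell. Col5a2 fell 2.07-fold, Col5a1 1.70-fold, and Col5a3 by 0.59 ± 0.11. The other fibrillar chains differed little: Col11a1 by −0.28 (adjusted p = 0.10, and 0.019 with the replicate block), Col2a1 by −0.18, Col27a1 by −0.03, Col11a2 by −0.02 and Col24a1 by 0.01. The count of 6 was the same with any 1 replicate left out. All 6 genes lay below all 18 values of the other mimics, which 1.67% of all genes did. Averaged over the 11 genes, the 3 miR-29a values lay 0.45, 0.51 and 0.82 below the control mean.

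The products of basement membrane genes form the sheet around muscle fibres. Of 24 measured genes 9 fell and 0 rose, with a median of −0.13. Without control replicate 1 the count of lower genes was 5. Type IV collagen forms the network of this sheet: Col4a1 went from 9.49, 9.34 and 9.56 to 8.70, 8.67 and 8.60, and Col4a2 from 10.09, 9.76 and 9.99 to 9.18, 9.12 and 9.13. Both fell 1.75-fold, and their miR-29a values lay below all 18 values of the other mimics. The minor chains Col4a3, Col4a4, Col4a5 and Col4a6 differed by −0.07, −0.03, −0.13 and −0.05, with no call. Nid1, the linker protein nidogen, fell by 0.51 ± 0.10, Pxdn, the peroxidase that crosslinks type IV collagen, by 0.49 ± 0.09, and Sparc, a collagen-binding matricellular protein, by 0.46 ± 0.05. Sparc was at 13.89, 13.80 and 13.81 in controls and 13.50, 13.39 and 13.22 under miR-29a. Laminin chains were mixed. Lamb3 was lower by 0.55 on average (adjusted p = 0.0091), but missed the threshold without miR-29a replicate 3 (0.071) or control replicate 1 (0.055), and Lamc1 (−0.36) missed it without control replicate 1 (0.075). Lama2, the muscle laminin alpha chain, differed by 0.16 and Lamb1 by −0.12, with no call. Hspg2 (perlecan, −0.36) and Nid2 (−0.34) passed with adjusted p of 0.0082 and 0.031, and missed the threshold without miR-29a replicate 3 (0.071 and 0.247) or control replicate 1 (0.066 and 0.139). Nid2 also missed it without miR-29a replicate 2 (0.087) or control replicate 2 (0.064), with only miR-29a and control values in the model (0.072) and with the arrays centred on their medians (0.060).

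Of 21 other collagens 4 were lower and 1 was higher, with a median of −0.07. Col6a1, of the microfibrillar type VI collagen, went from 10.02, 9.80 and 9.95 to 9.40, 9.43 and 8.76. It fell by 0.73 ± 0.14. Its partners Col6a3 (−0.68) and Col6a2 (−0.48) and the short-chain collagen Col8a1 (−0.64) passed as well, but without miR-29a replicate 3 the list had 1 lower gene, with adjusted p of 0.064, 0.246 and 0.062 for these 3. Without control replicate 1 it also had 1. Col12a1, a collagen that decorates fibres, was higher, with 12.12, 12.25 and 12.09 against 11.91, 11.63 and 11.86 (0.35 ± 0.08), and missed the threshold without miR-29a replicate 2 (0.051) or control replicate 2 (0.067).

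Of 30 measured enzymes and chaperones that process collagen 7 fell and 2 rose, with a median of −0.04, and the count of lower genes was 4 without miR-29a replicate 3. Serpinh1, the collagen chaperone HSP47, went from 11.97, 11.98 and 11.98 to 11.34, 11.18 and 10.98 and fell 1.75-fold. P3h1, a prolyl 3-hydroxylase of collagen, went from 9.11, 9.03 and 9.03 to 8.50, 8.45 and 8.33. It fell by 0.63 ± 0.08, and its miR-29a values lay below all 18 values of the other mimics. Colgalt1, a collagen galactosyltransferase, fell by 0.52 ± 0.07. Loxl1, a lysyl oxidase that crosslinks elastin and collagen, was lower by 0.45 (adjusted p = 0.028) and missed the threshold without any 1 of miR-29a replicates 2 and 3 and control replicates 1 and 2, and with the technical repeats not averaged in (0.058). Pcolce2, an enhancer of procollagen cleavage, rose by 0.51 ± 0.09.

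No elastic fibre gene passed as lower. Of 15 measured genes 3 were higher and 0 lower, with a median of 0.02. Eln, elastin, a known miR-29 target in other cells, was at 7.10, 7.39 and 7.32 in controls and 7.28, 7.25 and 7.33 under miR-29a, not far above the dim mark. Efemp1, a fibulin and 1 of the 3, was at 5.76, 5.83 and 5.85 in controls and 6.24, 6.61 and 6.27 under miR-29a, and since all 6 values lay below the dim mark no size is given for its difference. Emilin1 (0.34) and Fbln2 (0.33) passed with adjusted p of 0.024 and 0.011, and without miR-29a replicate 3 or control replicate 2 only 1 gene of the list was higher. Emilin1 also missed the threshold without miR-29a replicate 2 (0.139) or control replicate 1 (0.112). Among 28 proteoglycans and matricellular genes 2 were higher (Aspn and Thbs3) and 1 lower (Fstl1, −0.48), close to the shares over all genes, and with the replicate block 7 were higher and 2 lower. Thbs3, a thrombospondin (0.36), missed the threshold without miR-29a replicate 1 (0.104), control replicate 2 (0.111) or control replicate 3 (0.060). Fstl1 missed it without miR-29a replicate 3 (0.158) or any 1 of the 3 controls (0.051 to 0.064).

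Matrix proteases changed in both directions. Of 33 measured genes 6 fell and 4 rose, with a median of 0.05. With the replicate block 7 rose and 7 fell, and without miR-29a replicate 3 the higher genes numbered 2. Mmp2, the gelatinase that degrades type IV collagen and denatured collagen, went from 11.15, 11.43 and 11.35 to 10.64, 10.51 and 9.98 and fell 1.91-fold. Its miR-29a values lay below all 18 values of the other mimics. Adam19 fell by 0.72 ± 0.10 and Adam17, the sheddase of TNF and EGF-family ligands, by 0.64 ± 0.08. Mmp23 rose by 0.60 ± 0.14, from 8.19, 7.91 and 7.93 to 8.78, 8.60 and 8.46. Adamts4, an aggrecanase, was higher by 0.64 (adjusted p = 0.024) but missed the threshold without miR-29a replicate 2 (0.149), miR-29a replicate 3 (0.075) or control replicate 1 (0.125).

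Integrins and other collagen receptors were also mixed, with 5 of 27 higher and 4 lower and a median of −0.02. Without miR-29a replicate 2 these counts were 3 and 2. The higher genes also numbered 3 without control replicate 2 or 3, and the lower genes 2 without miR-29a replicate 3 or control replicate 1. Itgb8, the subunit that activates latent TGF-beta, went from 9.26, 9.11 and 9.31 to 10.02, 10.34 and 10.23 and rose by 0.97 ± 0.12. Itga4, a fibronectin and VCAM1 receptor subunit, rose by 0.62 ± 0.13. Sdc4, a heparan sulfate co-receptor, fell by 0.66 ± 0.10. Itga6, a laminin receptor subunit, was at 10.69, 9.67 and 9.73 in controls and 9.32, 9.002 and 8.999 under miR-29a (−0.92 ± 0.26, adjusted p = 0.024). The first control value was the highest, and the adjusted p without that replicate was 0.189, without miR-29a replicate 2 0.093, without miR-29a replicate 3 0.095 and with robust moderation 0.0545. Itga11 (0.70 ± 0.22, adjusted p = 0.044) had adjusted p of 0.090 to 0.212 without any 1 of miR-29a replicates 1 and 2 and of the 3 controls, and of 0.070 with robust moderation. Itgb1, the common beta subunit, differed by −0.02.

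**Figure D3:**
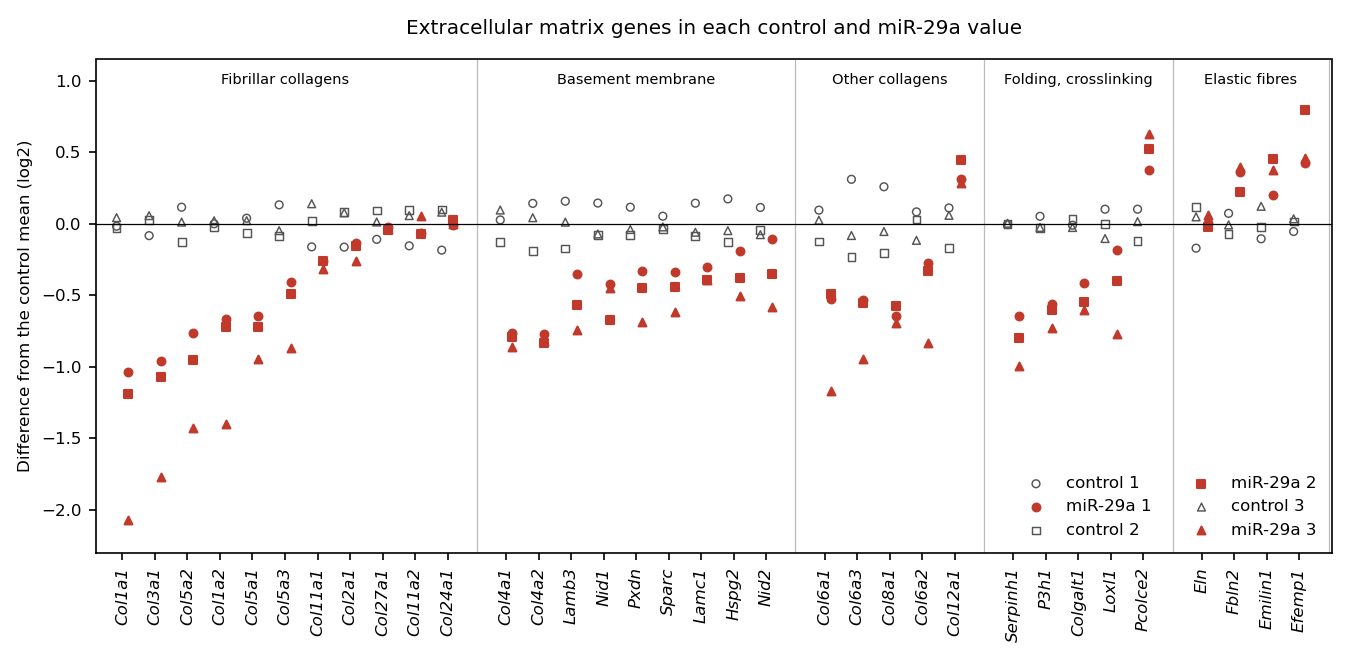
Difference of each value from the control mean (log2, y axis) for extracellular matrix genes by role (x axis); open markers are the 3 controls, filled markers the 3 miR-29a values, and the marker shape gives the replicate number. Col1a1 reaches below −2 in replicate 3, the type IV chains lie together near −0.8, and elastin stays at the control level.

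Of 17 measured genes of DNA methylation and demethylation 6 fell and 3 were higher, with a median of −0.15, and with the replicate block 7 fell and 5 were higher. Of the 3 TET enzymes, which oxidise methylated cytosine, Tet3 and Tet2 fell. Tet3 went from 10.39, 10.07 and 10.16 to 9.43, 8.88 and 8.97 and fell 2.17-fold (adjusted p = 1.4e-06). Tet2 went from 9.17, 8.92 and 8.97 to 8.46, 8.48 and 8.34 and fell 1.51-fold. Tet1 was at 8.94, 9.19 and 9.16 and then at 8.62, 8.86 and 8.67, a difference of −0.39 that missed the threshold (adjusted p = 0.059) and passed with the replicate block (0.0039). The de novo methyltransferases moved the same way: Dnmt3a went from 8.68, 8.73 and 8.80 to 8.04, 8.04 and 8.07, a decrease of 1.61-fold, and Dnmt3b from 7.38, 7.33 and 7.26 to 6.96, 6.93 and 6.92, a decrease of 1.30-fold. The miR-29a values of Dnmt3b were not far above the dim mark. Dnmt1, the maintenance methyltransferase, differed by −0.15 (adjusted p = 0.25), although its 3 miR-29a values lay below the 3 controls. Values of Tet3, Tet2 and Dnmt3a under miR-29a also lay below all 18 values of the other mimics. Gadd45b, which has been linked to active demethylation, rose by 0.57 ± 0.09 and Uhrf2 by 0.35 ± 0.07. Gadd45a was higher by 0.43 (adjusted p = 0.024) and missed the threshold without miR-29a replicates 2 or 3 or control replicates 2 or 3 (0.066 to 0.119) and with the arrays centred on their medians (0.051). Gadd45g (0.50) and Mbd1 (0.20) passed with the replicate block only, with adjusted p of 0.0010 and 0.025. Smug1 (−0.26) and Mbd2 (−0.18) were lower by small amounts. Smug1 missed the threshold without miR-29a replicate 2 (0.073) or control replicate 3 (0.055), and Mbd2 without any 1 of 5 replicates (0.066 to 0.142), with only miR-29a and control values in the model (0.113) and with centred arrays (0.127).

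Other chromatin regulators were called in both directions. Of 24 Polycomb genes 4 were lower and 1 higher (2 with the replicate block). Jarid2, a cofactor of Polycomb repressive complex 2, went from 9.94, 9.70 and 9.81 to 9.25, 9.26 and 8.82 and fell by 0.70 ± 0.10. Cbx2 fell by 0.41 ± 0.10 and Yy1, a described miR-29 target in muscle, by 0.27 ± 0.06. Rybp was lower by 0.27 (adjusted p = 0.038), a call lost without 5 of the 6 replicates in turn, with adjusted p of up to 0.211, and also with only miR-29a and control values in the model (0.074) or centred arrays (0.099). Of 11 histone deacetylases 2 were lower (4 with the block) and 3 higher, among them Hdac2 (−0.32), Hdac8 (0.40) and Hdac6 (0.37). Hdac4, another described miR-29 target, was lower by 0.39 (adjusted p = 0.011) and missed the threshold without miR-29a replicate 3 (0.078).

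Of 26 measured regulators of the G1 phase of the cell cycle 8 fell and 3 were higher, with a median of −0.13, against 4.78% of all genes lower and 5.54% higher. Without miR-29a replicate 2 or control replicates 2 or 3 the count of higher genes was 1. The list mean differed from the control mean by −0.23 under miR-29a, and under the other mimics by −0.08 (miR-145) to −0.48 (miR-1). Against the mean of the other mimics 6 genes were higher and 5 lower (3 without miR-29a replicate 2), with a median of 0.09. Cdk6, the kinase that drives entry into S phase with D-type cyclins, was at 11.67, 11.71 and 11.71 in controls and at 10.48, 10.17 and 10.16 under miR-29a, a decrease of 2.69-fold (−1.43 ± 0.08, adjusted p = 1.6e-10). Its levels under the other mimics ran from 10.28 to 11.27, all below the controls, and miR-29a overlapped them. Skp2, which targets the CDK inhibitor p27 for destruction, went from 11.03, 11.17 and 11.10 to 10.34, 10.03 and 9.99 and fell by 0.98 ± 0.08. E2f2 fell by 0.86 ± 0.15. Ccnd2, cyclin D2, went from 9.59, 9.64 and 9.67 to 8.88, 8.86 and 9.02 and fell by 0.71 ± 0.11, with all values below the 18 of the other mimics. E2f6, a repressor of the E2F family, rose by 0.64.

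The calls among genes of DNA replication and mitosis were all lower, against 4.78% of all genes lower (7.02% with the replicate block). Of 44 replication genes 3 were lower (6.82%, and 8 genes with the replicate block) and 0 higher, with a median of −0.12. The 3 (Nasp, Chaf1a and Rfc2) lost their calls without miR-29a replicate 2, control replicate 1 or control replicate 3, in which case the list had 0 lower genes. Chaf1a and Rfc2 also lost them with only miR-29a and control values in the model (0.060 and 0.062) or centred arrays (0.057 and 0.070). Of 49 mitosis genes 4 fell (8.16%) and 0 rose, with a median of −0.04. Mybl2, a transcription factor of mitotic genes and a known miR-29 target, fell by 0.78, Cdc25b, a phosphatase that activates CDK1, by 0.69 and Cdca8, borealin of the chromosomal passenger complex, by 0.49. Kif14 was lower by 0.43 and had an adjusted p of 0.0665 without miR-29a replicate 3 and of 0.082 with the mean of all its probe sets. Pcna, the replication clamp, differed by −0.08 from the control, and Mki67, the proliferation marker, by 0.21, with no call. The same lists stood higher than under the other mimics, as given below.

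Growth factor signalling through PI3K and Akt showed no common direction. Of 38 measured genes 5 rose and 4 fell, with a median of 0.01. Pik3cb, a catalytic subunit of PI3K, went from 9.74, 9.46 and 9.56 to 8.80, 8.41 and 8.99 and fell by 0.85 ± 0.18. Pdgfa, a ligand for PDGF receptors, went from 11.69, 11.47 and 11.59 to 10.85, 10.82 and 10.84 and fell 1.68-fold, below all 18 values of the other mimics. Igfbp6, a binding protein that holds back IGF2, was lower by 0.51 (adjusted p = 0.0064, and 0.055 without control replicate 1). Igf2r, the scavenging receptor for IGF2, rose by 0.52 ± 0.08 and Mtor by 0.43 ± 0.07. Pik3r1, the regulatory subunit p85 and a described target of miR-29, differed by −0.07 and Akt1 by −0.06. Among 14 genes of the Bcl2 family 2 were lower and 0 higher. Bak1, a pore-forming executioner of apoptosis, went from 11.66, 11.85 and 11.77 to 11.00, 10.51 and 10.45 and fell 2.16-fold. Mcl1, the anti-apoptotic member best known as a miR-29 target, was at 10.48, 10.36 and 10.46 in controls and at 10.30, 10.52 and 10.44 under miR-29a, with overlapping groups. Bcl2l2 differed by −0.31 (adjusted p = 0.040), and missed the threshold without any 1 of 5 replicates (0.052 to 0.200) and with centred arrays (0.093).

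The transcription factor ATF4 switches on genes of amino acid synthesis and transport when amino acids are short or the endoplasmic reticulum is stressed. Of 34 genes of the unfolded protein and ATF4 response 12 fell and 0 rose, with a median of −0.10. The count of lower genes was 6 without miR-29a replicate 2 and 7 without control replicate 3, and with the arrays centred on their medians it was 7. The 5 largest decreases were all genes known to respond to ATF4. Trib3, a pseudokinase, went from 9.11, 9.58 and 9.46 to 8.53, 8.35 and 8.54 and fell by 0.91 ± 0.12. Chac1, which degrades glutathione, went from 10.32, 10.66 and 10.41 to 9.74, 9.59 and 9.78 and fell by 0.76 ± 0.13. Both lay below all 18 values of the other mimics. Atf5 fell by 0.57 ± 0.13, Psat1 of serine synthesis by 0.52 ± 0.11 and Asns, asparagine synthetase, by 0.50 ± 0.08. Slc7a1 and Cth, described above among the largest decreases, are also known to respond to ATF4 but were not on the list. The endoplasmic reticulum chaperone Hspa5 (BiP), at 13.04, 13.04 and 13.06 and then 12.90, 12.97 and 13.02, differed by −0.08, and Ddit3 (CHOP), the factor of stress-induced cell death, by −0.02, with no call for either.

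**Figure D4:**
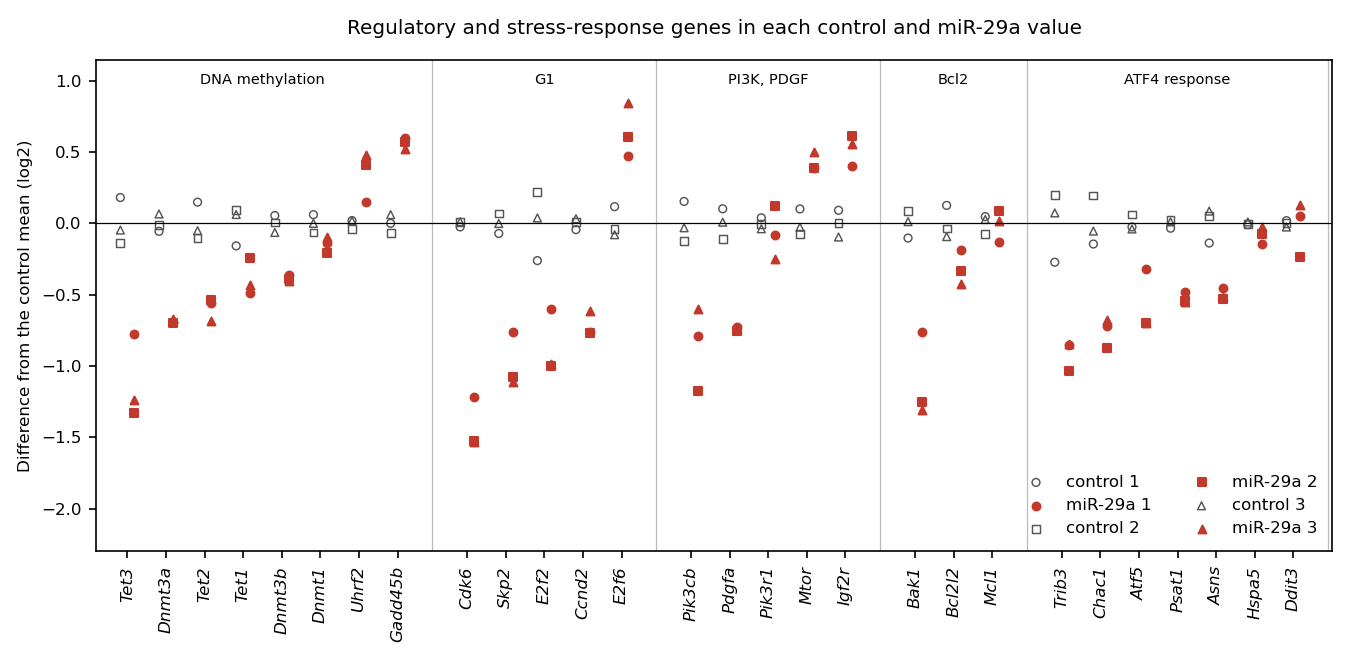
Difference of each value from the control mean (log2, y axis) for genes of DNA methylation, the G1 phase, growth signalling, the Bcl2 family and the ATF4 response (x axis); open markers are the 3 controls, filled markers the 3 miR-29a values, and the marker shape gives the replicate number. Tet3, Cdk6 and Bak1 lie lowest, and Pik3r1, Mcl1, Hspa5 and Ddit3 scatter around the control mean.

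Muscle genes were in part higher under miR-29a. Of 55 genes on the sarcomere list 11 were higher and 0 lower, with a median of 0.16. Most encode the contractile apparatus, but the list also holds genes of calcium handling (such as Ryr1) and creatine kinases (such as Ckm). The list mean differed among the 3 miR-29a values: it was 0.00, 0.28 and 0.42 above the control mean, and the controls lay between −0.05 and 0.10, so that miR-29a replicate 1 was within the control range. The count of higher genes was 4 without miR-29a replicate 2, 4 without miR-29a replicate 3 and 5 without control replicate 3. Tnnt1, slow troponin T, went from 10.01, 10.23 and 10.05 to 10.69, 11.22 and 10.90 and rose 1.79-fold. Xirp1 rose by 0.83 ± 0.18 and Actn3, alpha-actinin 3, by 0.78 ± 0.17. Ttn, titin, was higher by 0.86 (adjusted p = 0.015) and Myh3, embryonic myosin, by 0.76 (adjusted p = 0.012), and each missed the threshold without miR-29a replicate 2 (0.070 and 0.065) or miR-29a replicate 3 (0.057 and 0.081). Ttn also missed it without control replicate 1 (0.081) and Myh3 without control replicate 3 (0.064). For scale, Myh3 was at 12.08 in the single untransfected myoblast array and at 13.09 in the single myotube array, against 10.37, 10.86 and 10.94 under miR-29a. All 3 mimic values and all 3 controls thus lay below the untransfected myoblasts. In these bulk extracts, more cells on the way to differentiation and more RNA per cell cannot be told apart.

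Of 29 myogenic factors and fusion genes 6 were higher and 1 was lower, with a median of 0.19. With the replicate block 12 were higher, and without control replicate 3 the count was 3. Cdh2, N-cadherin of myoblast contacts, went from 11.61, 11.43 and 11.46 to 12.02, 12.10 and 12.14 and rose by 0.59 ± 0.06. Itga7 (0.37) and Jam2 (0.35), a laminin receptor subunit and a junction protein, rose by smaller amounts. Fst, follistatin, which binds myostatin and activins, was higher by 0.75 (adjusted p = 0.0073) and missed the threshold without control replicate 3 (0.064). Myog, the factor of terminal differentiation, was at 9.81, 10.05 and 9.43 in controls and 10.14, 10.70 and 10.21 under miR-29a, a difference of 0.59 that missed the threshold (adjusted p = 0.24) and passed with the replicate block (0.012). Myod1 differed by 0.03 and Pax7, a marker of satellite cells, by 0.06. Srf was lower by 0.41 (adjusted p = 0.048), a call that did not hold without any 1 of 5 replicates (0.055 to 0.235) or under 5 other settings (0.051 to 0.082). Of 8 myotube markers 1 was higher, Myh3 (2 with the block, with Myog). Among 26 actin genes and SRF targets 5 were higher and 0 lower, with a median of 0.10. Synpo2, an actin-bundling protein, rose by 0.64 and Cnn1, calponin, by 0.50. Without miR-29a replicate 2 or control replicate 3 the count was 3.

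Lists of signalling, p53, microRNA pathway and protein turnover genes had calls in both directions. Of 41 TGF-beta and BMP genes 4 were higher and 2 lower (4 with the replicate block), and with any 1 replicate left out 0 to 2 were higher, the fewest without control replicate 3. Id2, an inhibitor of helix-loop-helix factors, fell by 0.44. Of 29 Wnt genes 2 were higher and 1 fell, and with the block 4 and 3. Dkk3, of the Dickkopf family, went from 7.35, 7.53 and 7.31 to 8.15, 8.42 and 8.08 and rose 1.76-fold, and Ctnnb1, beta-catenin, fell by 0.39 ± 0.06, from 12.64, 12.55 and 12.55 to 12.30, 12.16 and 12.09. Of 25 p53 targets 5 were higher (8 with the replicate block), against 5.54% of all genes, and 2 lower, but without miR-29a replicate 2 or 3 or control replicate 2 or 3 the count of higher genes was 1, and it was 3 without control replicate 1. Trp53inp1, a stress-induced p53 partner, went from 9.70, 9.79 and 9.70 to 10.78, 11.11 and 11.08, a rise of 2.39-fold. In the microRNA pathway 1 of 18 genes rose and 1 fell (3 with the block). Tnrc6a, the GW182 protein that brings deadenylases to Argonaute, rose by 0.65 ± 0.08, and Ago1, an Argonaute, fell by 0.49 ± 0.10. Of 24 muscle ubiquitin ligase and lysosome genes 3 were higher (8 with the replicate block) and 1 lower (2 with it), among them Nedd4, which rose by 0.35. Without control replicate 1 the count of higher genes was 5.

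Metabolic and innate immune lists gave few calls. Of 28 cholesterol synthesis genes 2 rose (Nsdhl, 0.51, and Acly, 0.28) and 1 fell (Dhcr7, −0.62; 2 with the block). For oxidative phosphorylation 2 of 36 genes were lower, Uqcrfs1 (−0.28) and Atp5a1 (−0.16), and neither passed without miR-29a replicate 3 (adjusted p = 0.144 and 0.131), miR-29a replicate 2 or control replicates 2 or 3, nor with only miR-29a and control values in the model (0.057 and 0.096) or after a further quantile normalisation (0.081 and 0.107). Uqcrfs1 also missed the threshold without miR-29a replicate 1 (0.083), with the technical repeats not averaged in (0.063) and with centred arrays (0.053), and Atp5a1 with moderation without a trend (0.090). For ribosome biogenesis 2 of 29 were lower (4 with the block, and 1 higher), with Rrs1 at −0.56 (adjusted p = 0.0091, and 0.064 without miR-29a replicate 3). Of 23 NRF2 and glutathione genes 1 was higher and 1 lower, and with the block 3 and 3. Of 36 interferon-stimulated genes 0 passed limma's test, with 1 at an unadjusted p under 0.05. Of 25 glycolysis and hypoxia genes 0 passed, with 6 at an unadjusted p under 0.05, and with the replicate block 2 rose and 2 fell.

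The second comparison sets miR-29a against the mean of the 6 other mimics and asks what separates miR-29a from the other transfected microRNAs. It shares the 3 miR-29a values with the first comparison. Here 3400 genes passed (17.1%), 1754 higher (8.8%) and 1646 lower (8.26%). Without miR-29a replicate 3 the count of higher genes was 1083. In 332 genes (1.67%) the 3 miR-29a values lay below all 18 values of the other mimics, and in 161 (0.808%) they lay above. The targets list had 56 lower and 1 higher (2 with the block) of 94 members, the fibrillar collagens 7 lower of 11, the basement membrane list 12 lower of 24 and the collagen processing list 13 lower and 3 higher of 30. The ATF4 and unfolded protein list had 23 lower and 0 higher of 34. The mean of this list differed from the control mean by −0.19 under miR-29a, and by 0.26 under miR-22, 0.23 under Let-7b and 0.16 under miR-1. It differed by 0.01 under miR-145, −0.03 under miR-365 and −0.06 under miR-34a. The comparison thus includes rises under some of the other mimics. Against the other mimics the called members include Ddit3 (−0.50) and Hspa5 (−0.29), which did not differ by the test from the control.

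The largest decreases against the other mimics were C1qtnf6 (−2.01), Pi15, Col1a1 (−1.37), Cth (−1.35), Taf13 (−1.35), Plau (−1.33), Col3a1 (−1.32) and Elovl5 (−1.30). Elovl5, a fatty acid elongase, went from 11.63, 11.72 and 11.69 in controls to 10.97, 10.52 and 10.25 under miR-29a. Its 18 other mimic values ran from 11.56 to 12.07. Pi15, a secreted peptidase inhibitor, is a different case: it was at 6.69, 6.47 and 6.58 under miR-29a and at 6.87, 6.86 and 6.70 in the controls, close to the dim mark, and at 7.08 to 9.79 under the other mimics, and no size is given for that difference. Its difference from the control was −0.23 (adjusted p = 0.65). The largest increases against the other mimics were Fabp7 (1.28), Zmat1, Ccl9 (1.06), Fbxo48 (1.03), Rnf157 (0.94), Tmx4 (0.90), Nrm (0.88) and Cdkn2aipnl (0.87). Tmx4, a thioredoxin-related protein of the endoplasmic reticulum, went from 9.67, 9.72 and 9.72 to 10.77, 11.01 and 11.03 and rose 2.35-fold against the control too. Rnf157, a RING ubiquitin ligase, rose 1.84-fold. Zmat1 was at 6.60, 6.34 and 6.57 in controls, below the dim mark, and at 7.60, 7.88 and 7.72 under miR-29a, and no fold is given for it. Fbxo48 and Nrm did not pass against the control, with differences of 0.28 and 0.31 (Nrm passed with the replicate block, adjusted p = 0.030), and Cdkn2aipnl was higher there by 0.45 but missed the threshold without miR-29a replicates 2 or 3 or control replicate 3 (0.061 to 0.065).

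Many cell division genes were higher under miR-29a than under the other mimics. Of 44 replication genes 29 were higher and 1 lower against their mean, with a median of 0.32, and of 49 mitosis genes 36 were higher and 0 lower, with a median of 0.37. Against the control the same lists had medians of −0.12 and −0.04. The mitosis list lay 0.09, 0.05 and 0.07 below the control mean in the 3 miR-29a values. It lay 0.93 below in the mean of miR-1, 0.47 below for miR-365, 0.37 below for miR-34a and 0.35 below for miR-22, but 0.08 below for miR-145 and 0.13 below for Let-7b. The replication list differed from the control mean by −0.12 under miR-29a, −0.12 under miR-145 and −0.19 under Let-7b. Under the rest it differed by −0.41 (miR-365) to −0.97 (miR-1). Without miR-1 among the other mimics the counts of higher genes were 19 and 18, and without miR-29a replicate 2 the mitosis count was 20. Pola1, the catalytic subunit of DNA polymerase alpha, stood 0.58 ± 0.11 higher than under the other mimics, Cdc6, which loads the replicative helicase, 0.56 ± 0.12, and the kinetochore genes Cenpf and Nuf2 0.57 ± 0.13 and 0.53 ± 0.11. Mcm5, a subunit of that helicase, stood 0.65 higher, with an adjusted p of 0.0625 without miR-29a replicate 1. The actin and SRF target list had 12 higher and 0 lower of 26, and 6 higher without miR-29a replicate 2. The sarcomere list had 7 higher and 0 lower of 55 (8 and 5 with the replicate block), with a median of −0.03, and 3 higher without miR-29a replicate 2, 4 without miR-29a replicate 3 and 3 without Let-7b among the other mimics.

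**Figure D5:**
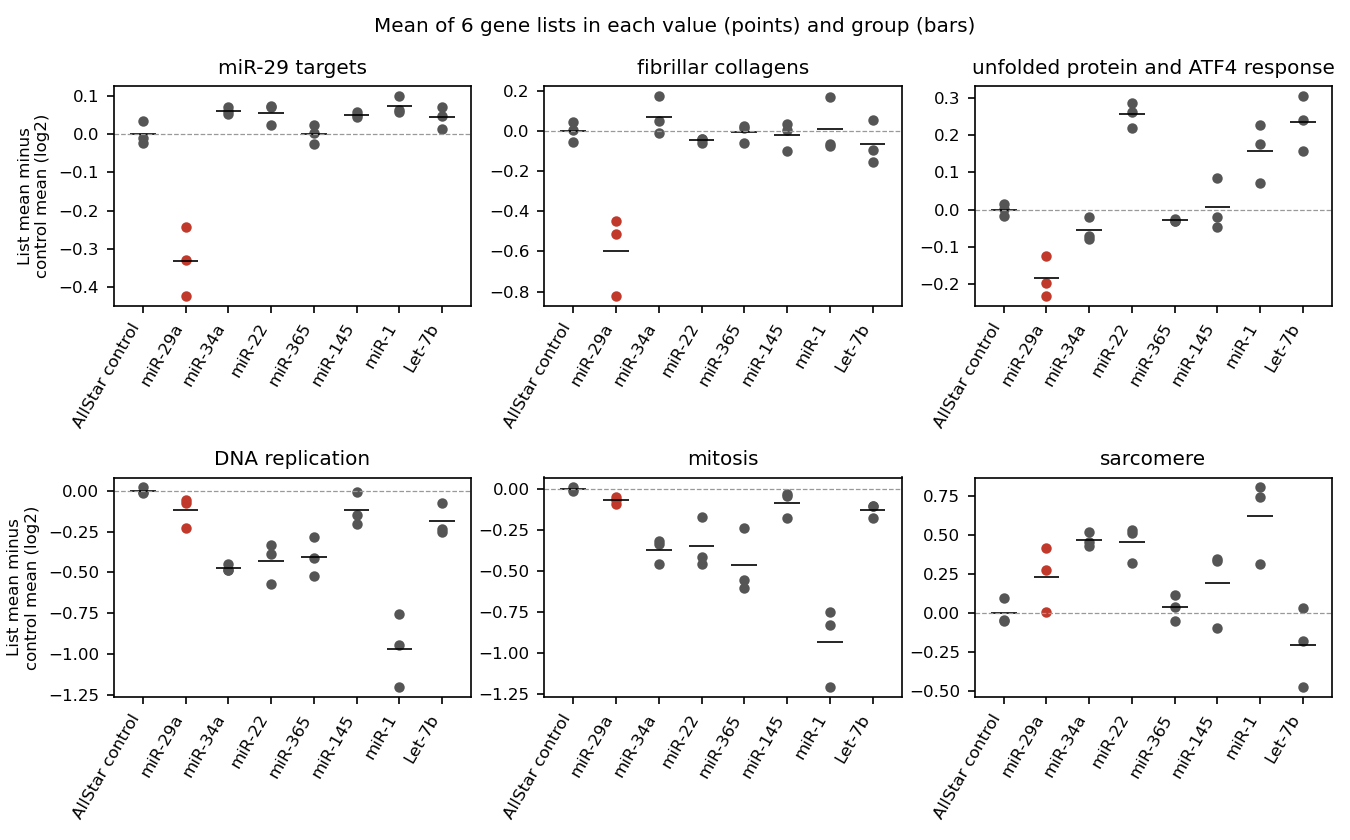
Mean of 6 gene lists in each of the 24 values (points) and in each group (bars), as the difference from the control mean (log2, y axis) by group (x axis); the miR-29a points are coloured. For the miR-29 targets and fibrillar collagens the 3 miR-29a points lie below all others. For mitosis they lie a little below the controls and for replication at −0.06, −0.22 and −0.07, while miR-1 lies lowest in both.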

How the data were processed

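The values are log2 expression levels per probe set, which the authors deposited after RMA in Affymetrix Expression Console 1.1, per the submitters' processing notes. RMA corrects the background, equalises the arrays' quantiles and summarises probes. Filters and a genome build are not given in the sources used here. No column of per-sample values was left unused. The platform annotation gave 1 gene symbol for 21789 of 35556 probe sets, several for 1621 and none for 12146. Among single-symbol probe sets the brightest on average stood for its gene (19938 genes, 999 with a choice to make). A check of 21698 symbols against Entrez identifiers altered 0.

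The 2 arrays of a control transfection entered as their mean. Correlations across probe sets do not settle the pairing of the repeats: an array and its own repeat had r of 0.9958 to 0.9963, and control replicates 2 and 3, separate transfections, 0.9966. The 24 values of the 8 transfected groups were modelled by group alone with limma 3.58.1 under R 4.3.3, using a variance prior that follows the mean level. The procedure was tested on simulated data. Fold changes are 2 to the power of the log2 difference, computed here. P-values and SEs rest on the spread between transfections within a group, pooled over the 8 groups, all of 1 line.

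Replicate numbers were checked as pairs on the residuals: r was 0.316, 0.155 and 0.182 for control and miR-29a values of number 1, 2 and 3, and 75 of 84 same-number pairs of any groups exceeded 0.1. All 21 of the same-number pairs that included a miR-29a value did so. Control and miR-29a values of different numbers had r from −0.328 to 0.206. The highest of these, control 3 with miR-29a 2, exceeded the values of numbers 2 and 3. Most same-number pairs thus correlated, which the labels' 3 experiments would give, but not every pair stood out. A fit that blocks on this number is printed where it changes a call or moves a count by over 1.5 times.

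Named are the 15 largest decreases and 10 largest increases among genes past the threshold whose groups do not overlap, 8 and 8 in the same way against the other mimics (with all 18 of their values on 1 side), up to 5 passing members of a list, up to 3 well-known members with no call, and any member of the fibrillar collagen, basement membrane, elastic fibre and DNA methylation lists. The comparison, lists and rules were chosen with earlier results of these data known. Lists are described by counts and medians and were not tested as sets.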

Additional observations from a re-analysis of the deposited data

Results flagged for a closer look

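Probe sets with no listed gene, which the comparisons by gene do not use, gave calls as well. Of these 12146 probe sets, 289 passed limma's test between miR-29a and the control, adjusted over all 35556 probe sets. That is a smaller share than the 10.3% of genes that passed. Of the 289, 209 were lower and 80 higher, and 6 differed at least 2-fold. What these probe sets detect was not analysed here.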

How the results depend on the processing

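Among the genes that the naming rule covers, no call changed direction under any alternative that was run. A change of sign was not counted for genes without a call. Against the control, the count of higher genes was 1104 as reported and 1742 with the replicate block, and with one replicate left out at a time it ran from 646 to 1074. The count of lower genes was 954 as reported and 1400 with the block, and with one replicate left out from 641 to 1010. Requiring at least a 1.5-fold difference left 200 higher and 232 lower genes, and at least 2-fold 24 and 34. The other scalings, filters and moderation settings kept these counts within 1.5 times. Against the other mimics, the higher genes ran from 1083 to 1751 and the lower genes from 1103 to 1645 with one replicate left out. The count of lower miR-29 targets was 44 as reported, 48 with the block and 33 to 45 with one replicate left out, and that of fibrillar collagens was 6, 7 and 6. Where counts fell with a replicate left out, the comparison had fewer samples.

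For the 214 genes that the naming rule covers, 3181 of their comparisons with the control under an alternative kept their call or their lack of one. A call was lost in 218, gained in 15 and reversed in 0. The planned comparison of genes with and without a seed site in their transcripts was not run. Levels of probe sets near the dim mark of 6.66 limit what can be said of Eln, Efemp1, Hoatz, Zmat1, Pi15, Ccl9 and Dnmt3b.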
